A study of Homo sapiens with 6 samples.

Results

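Retinoid genes were examined in HK-2 cells, an immortal human cell line from the epithelium of the kidney's proximal tubule, with and without oxidized low-density lipoprotein (OX-LDL). The 9 genes are the retinal reductase *DHRS3*, the retinol dehydrogenase *RDH10*, the retinal dehydrogenases *ALDH1A1*, *ALDH1A2* and *ALDH1A3*, the retinoic acid receptors *RARA*, *RARB* and *RARG*, and the retinoic acid carrier *CRABP2*. They were chosen by gene name from a table of 58825 genes, with the difference between the treated and untreated cells already known. Poly(A) RNA had been sequenced from 3 Control samples, described as untreated, and from 3 samples that had received OX-LDL at 25 μg/ml over 48 h. According to the study's methods, HK-2 cells were held in low serum before stimulation, and no batch is named for the libraries. The labels do not say whether the samples of a group were separate cultures, so p-values measure only the spread between these libraries, which may be technical.

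Retinol, the transport form of vitamin A, enters many cells through the receptor STRA6 and is oxidized to retinal by RDH10, while DHRS3 reduces retinal back to retinol. The ALDH1A enzymes then oxidize retinal to retinoic acid in a step that is not reversed, CRABP2 delivers retinoic acid to the nucleus, and CYP26 enzymes degrade it. In the nucleus, a retinoic acid receptor paired with a retinoid X receptor binds repeated hexamers in DNA. *DHRS3*, *CRABP2*, *RARB*, *CYP26A1* and *STRA6* are themselves known as genes that retinoic acid can induce. In the developing kidney, retinoic acid is known for maintaining *RET* and the branching of the ureteric bud.

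The DNA in front of 4 of the genes is shown because retinoic acid receptors are known to bind pairs of hexamers in promoters such as that of *RARB*. Windows from 250 bases before to 50 bases after each RefSeq start site (GRCh38.p14) were available for 8 of the 9 genes, with 16 windows in all, and for 60 of 78 other retinoid pathway genes, with 92 windows. They were searched on both strands for the consensus hexamer AGGTCA, for the variant AGTTCA, for the variant GGGTCA and for the variant GGTTCA, and for a pair of these in the same orientation with 1 base (N, a motif called DR1), 2 bases (NN, DR2) or 5 bases (NNNNN, DR5) between them. Hexamers inside a pair were counted as hexamers too. Of all 35116 windows in the RefSeq table, 38.6% held a hexamer, 0.131% a DR1, 0.0399% a DR2 and 0.0883% a DR5. A hexamer was present in 8 of the 16 windows (32 of the 92 for the other pathway genes) and a DR5 in 1, the *RARB* window, while the only DR5 among the other pathway genes was in front of *CYP26A1*. The lines below run 5′ to 3′ on the strand of the gene, with the matches in capitals, and a match describes the letters only. The *RARB* line is chr3:25428013-25428262 on the plus strand, ending at the base before the start site, with its DR5 at positions -53 to -37 and 1 more hexamer at -83 to -78, where -1 is the base before the start site. The *CYP26A1* line is chr10:93073797-93073825 on the plus strand and shows the 17 bases of the match, which reads as a DR5 on the opposite strand at positions -90 to -74, with 6 bases on each side. The *DHRS3* line is chr1:12618211-12618460 on the minus strand and the *CRABP2* line is chr1:156705817-156706034 on the minus strand. The *DHRS3* line has 250 bases up to its start site, whereas the *CRABP2* line has 218 and stops short of its start site at 156705784. They are given because these genes had the lowest and the highest ratio of OX-LDL to Control, and the first holds no match while the second holds 1 hexamer. Further start sites of *DHRS3* have 2 windows with a hexamer each.
RARB: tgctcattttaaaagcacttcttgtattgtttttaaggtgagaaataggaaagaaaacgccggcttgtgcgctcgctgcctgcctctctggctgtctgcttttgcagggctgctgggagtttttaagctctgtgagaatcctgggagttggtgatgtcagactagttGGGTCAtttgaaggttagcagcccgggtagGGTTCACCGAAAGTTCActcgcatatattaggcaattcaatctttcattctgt
CYP26A1: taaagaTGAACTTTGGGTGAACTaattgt
DHRS3: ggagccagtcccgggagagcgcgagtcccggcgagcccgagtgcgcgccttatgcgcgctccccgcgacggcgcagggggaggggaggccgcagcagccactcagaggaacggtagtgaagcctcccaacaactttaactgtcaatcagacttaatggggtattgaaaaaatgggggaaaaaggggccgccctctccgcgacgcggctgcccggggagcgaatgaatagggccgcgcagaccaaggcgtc
CRABP2: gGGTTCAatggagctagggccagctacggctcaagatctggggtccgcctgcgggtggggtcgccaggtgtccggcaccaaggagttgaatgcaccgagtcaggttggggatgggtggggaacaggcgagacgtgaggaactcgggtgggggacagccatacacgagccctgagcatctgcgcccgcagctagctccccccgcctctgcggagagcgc

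The deposited table holds estimated counts and FPKM, which are fragments per kilobase of a transcript scaled to the size of the library. Total counts ranged from 62561347 to 76797607, and the excess of genes at 4, 8 and 12 counts places a read pair at about 4 counts. A gene with at most 12 counts, or 3 read pairs, in a library was taken as at or under the detection limit there, a limit that covers counting error only. Every count of 0 is listed at 0.0001 FPKM. Of 14 kidney epithelial markers, 9 were over a mean of 0.1 FPKM, with a summed level of 206 to 231 FPKM in Control, compared with 225 to 268 FPKM in OX-LDL. *PAX8* and *EPCAM* were among these. The E-cadherin gene *CDH1* barely reached the level, with group means of 0.0968 (Control) and 0.106 FPKM (OX-LDL). It had 15 to 73 counts over the 6 libraries. The brush border gene *GGT1* was also among the 9. Its entry ENSG00000100031 ranged from 3.13 to 18.2 FPKM over the 6 libraries. A further *GGT1* entry, ENSG00000286070, reached 22.6 FPKM in Control replicate 3 but only 0.0518 FPKM in Control replicate 2. The other brush border and transport genes of the list were under 0.1 FPKM. These were *ANPEP*, *CUBN*, *SLC34A1*, *AQP1* and *SLC22A6*, which mark mature proximal tubule. *PAX8* fell by 1.23 on the log2 scale (edgeR adjusted p = 0.0182, with the call kept in 2 of 6 fits on 5 libraries) and *KRT19* rose by 1.94 (edgeR adjusted p = 0.00207), and their part in the retinoid values was not tested. Summed fibroblast markers lay at 10.1 to 12 FPKM in Control, compared with 8.77 to 14.1 FPKM in OX-LDL, most of it from *LUM*. Endothelial markers summed to at most 0.122 FPKM. The 8 leukocyte markers summed to 3.19 to 7.85 FPKM in Control, compared with 9.20 to 14.0 FPKM in OX-LDL, most of it from the lysosomal gene *CD68*. *TYROBP* was listed at 0 in all 6 libraries, and *PTPRC* had 8 counts in OX-LDL replicate 1 and none elsewhere. In all, 5 of the 8 were at or under the detection limit throughout, while *CD14* had 26 to 51 counts.

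Of the 9 genes, 7 reached the mean of 0.1 FPKM that was required for the fit of all genes, and *ALDH1A2* and *RARB* did not. *DHRS3* stood out on the lower side in OX-LDL and *CRABP2* on the higher side, while the other 5 genes had log2 differences between -0.35 and 0.31. Over all 19510 genes fitted with edgeR's quasi-likelihood test, 15.3% passed an adjusted p under 0.05, with 7.91% higher and 7.42% lower in OX-LDL. Of the 7 genes, *DHRS3* passed on the lower side and *CRABP2* on the higher side. Nothing is read from either pass or from their count, because the genes were chosen with the same contrast in view. The median log2 difference of the 7 genes was -0.18, beside -0.004 over all genes fitted. The 6 libraries held separate ranges of FPKM in the 2 groups for 3 of the 7 genes, beside 37.2% of all genes fitted. In bulk RNA, fewer cells expressing a gene and less of its RNA per cell cannot be told apart.

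**Figure D1:**
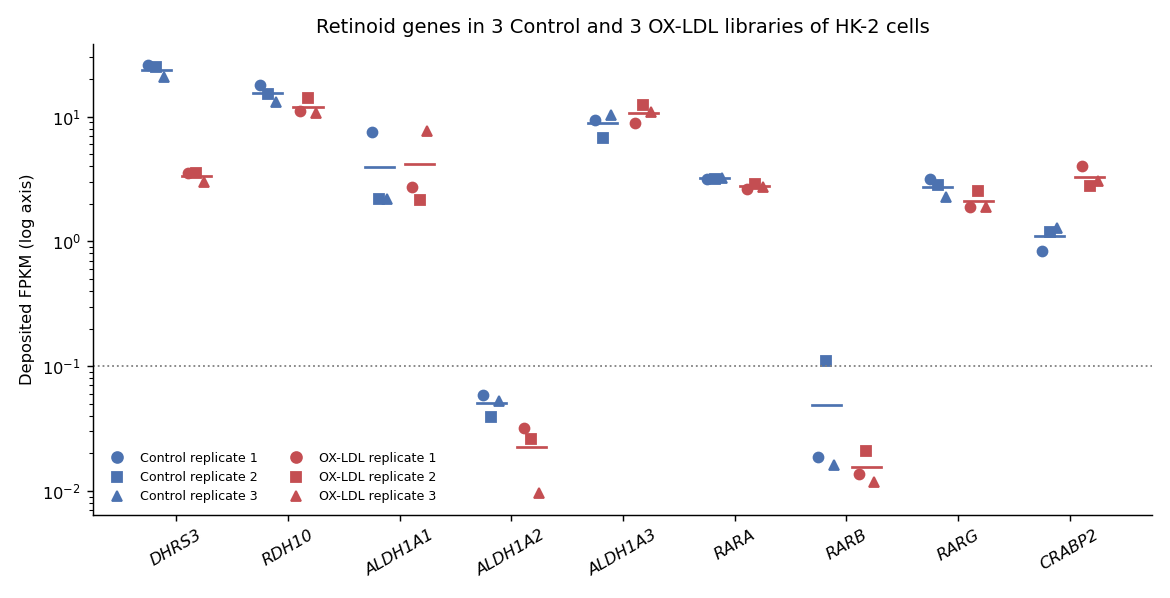
Deposited FPKM (log axis) of the 9 retinoid genes in each of 3 Control and 3 OX-LDL libraries of HK-2 cells, with a marker per library, a horizontal line at each group mean and a dotted line at the minimum mean of 0.1 FPKM. *DHRS3* lay at 20.7 to 25.7 FPKM in Control and at 2.96 to 3.54 FPKM with OX-LDL, *CRABP2* at 0.836 to 1.27 and 2.76 to 4.04 FPKM, and *ALDH1A1* split within each group.

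*DHRS3* (ENSG00000162496, chromosome 1, 12567910 to 12618210, minus strand) encodes the enzyme that returns retinal to retinol. Its position and those that follow are on GRCh38, as in the deposited table. Its level was 25.7, 25.1 and 20.7 FPKM in Control replicates 1 to 3 and 3.54, 3.51 and 2.96 FPKM in OX-LDL replicates 1 to 3. The lowest Control library was far above the highest OX-LDL library, and the 3 OX-LDL libraries lay close together. The mean was 23.8 ± 2.74 FPKM (SD, n = 3) for Control and 3.34 ± 0.324 FPKM (SD, n = 3) for OX-LDL, which is 7.14-fold lower. On the log2 scale of the fit the difference was -2.80 (SE 0.13), and it lay between -2.90 and -2.73 when any 1 library was left out. Both genes inside its coordinates were small RNAs with at most 23 counts in a library.

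*RDH10* (ENSG00000121039, chromosome 8, 73294602 to 73325281, plus strand), which works in the opposite direction and is the main retinol dehydrogenase for retinoic acid synthesis in the embryo, was read at 18.04, 15.3 and 13.1 FPKM in Control, compared with 11.2, 14.0 and 10.7 FPKM in OX-LDL. The groups overlapped, since OX-LDL replicate 2 exceeded Control replicate 3. The fitted log2 difference was -0.34 (SE 0.16). The start of *RDH10* overlaps the ribosomal protein gene *RPL7* on the other strand, which had 39557 to 58971 counts, and a use of strand in the counting is not stated.

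The order of the opposing enzymes reversed, with *DHRS3* far lower and *RDH10* not higher in OX-LDL. The ratio of *DHRS3* to *RDH10* in FPKM was 1.42, 1.64 and 1.58 in the 3 Control libraries and 0.317, 0.250 and 0.277 in the 3 OX-LDL libraries, with means of 1.55 ± 0.113 and 0.281 ± 0.0338 (SD, n = 3 each). *DHRS3* was thus the more abundant of the pair per length in every Control library and the less abundant in every OX-LDL library.

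The ALDH1A family, which makes retinoic acid from retinal, was carried by *ALDH1A3* and *ALDH1A1*. *ALDH1A3* (ENSG00000184254, chromosome 15, 100877714 to 100916626, plus strand) was measured at 9.38, 6.69 and 10.3 FPKM in Control, compared with 8.85, 12.3 and 10.8 FPKM in OX-LDL. The groups overlapped, with a log2 difference of 0.31 (SE 0.19) that moved between 0.14 without Control replicate 2 and 0.43 without Control replicate 3. An antisense gene (ENSG00000259583) with 299 to 645 counts overlaps it.

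*ALDH1A1* (ENSG00000165092, chromosome 9, 72900671 to 73080442, minus strand), also a widely used marker of progenitor cells, varied widely within both groups. Its level was 7.50, 2.19 and 2.18 FPKM in Control replicates 1 to 3 and 2.74, 2.14 and 7.61 FPKM in OX-LDL replicates 1 to 3. A single library of each group, Control replicate 1 and OX-LDL replicate 3, was high, and the other 4 libraries lay together. The means of 3.96 ± 3.07 FPKM for Control and 4.16 ± 3.00 FPKM for OX-LDL (SD, n = 3 each) therefore describe neither group well. The log2 difference was 0.10 (SE 0.66), and it turned from -0.67 without OX-LDL replicate 3 to 0.97 without Control replicate 1.

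*ALDH1A2* (ENSG00000128918, chromosome 15, 57953425 to 58473913, minus strand), the main retinal dehydrogenase of the embryo, was close to the detection limit. It had 45, 32 and 37 counts in Control, compared with 21, 21 and 8 counts in OX-LDL. The Control libraries were the higher ones and the groups did not overlap, but the 8 counts of OX-LDL replicate 3 are under the limit of 12. With no minimum level in the fit, the log2 difference was -1.12 (SE 0.55). It overlaps 14 other genes, of which *LIPC* (48 to 158 counts) and *LIPC-AS1* (0 to 22 counts) had counts over the limit.

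Summed over the 3 ALDH1A genes, the level was 17.0, 8.92 and 12.5 FPKM in Control, compared with 11.6, 14.4 and 18.4 FPKM in OX-LDL, and the groups overlapped. *ALDH1A3* made up 55.4 to 85.0% of the sum and *ALDH1A1* 14.9 to 44.3%, with the highest *ALDH1A1* shares in the same Control replicate 1 and OX-LDL replicate 3. *ALDH1A2* held at most 0.441%.

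**Figure D2:**
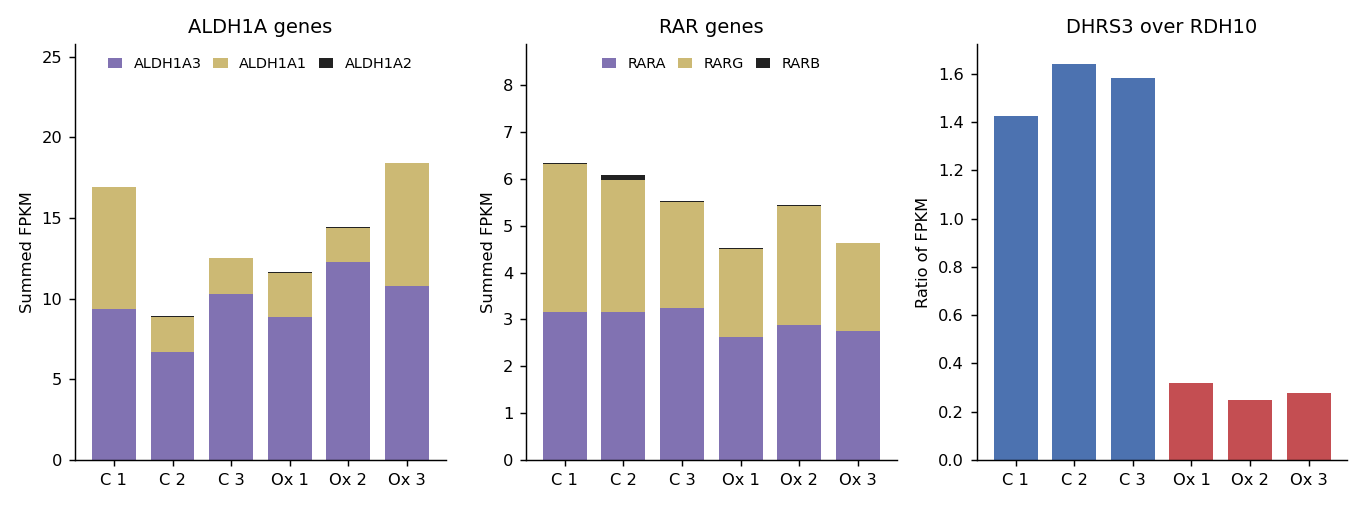
Summed FPKM of the ALDH1A genes (left) and of the RAR genes (middle), stacked by gene, and the ratio of *DHRS3* to *RDH10* in FPKM (right), with a bar for each Control (C) and OX-LDL (Ox) library. The ALDH1A sums of the groups overlap (8.92 to 17.0 and 11.6 to 18.4 FPKM), the RAR sums do not (5.53 to 6.35 and 4.52 to 5.46 FPKM), and the ratio is 1.42 to 1.64 in Control and 0.250 to 0.317 in OX-LDL.

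*CRABP2* (ENSG00000143320, chromosome 1, 156699606 to 156705816, minus strand), the carrier that hands retinoic acid to its receptors, was the gene with the highest ratio. Its level was 0.836, 1.18 and 1.27 FPKM in Control, compared with 4.04, 2.76 and 3.07 FPKM in OX-LDL, from 82 to 114 counts and 272 to 323 counts. All 3 OX-LDL libraries were above all 3 Control libraries. The mean was 1.10 ± 0.229 FPKM for Control and 3.29 ± 0.668 FPKM for OX-LDL (SD, n = 3 each), which is 3.01-fold higher, and the fitted log2 difference was 1.61 (SE 0.25).

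The receptors were read mainly from *RARA* and *RARG*. *RARA* (ENSG00000131759, chromosome 17, 40309180 to 40357643, plus strand), the most widely expressed of the receptors, was at 3.17, 3.17 and 3.24 FPKM in Control, compared with 2.62, 2.89 and 2.74 FPKM in OX-LDL. The Control libraries were almost equal and all above the OX-LDL libraries. The log2 difference was small, at -0.18 (SE 0.10).

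*RARG* (ENSG00000172819, chromosome 12, 53210567 to 53232980, minus strand), the receptor best known from skin, was at 3.16, 2.81 and 2.28 FPKM in Control, compared with 1.88, 2.55 and 1.88 FPKM in OX-LDL. OX-LDL replicate 2 lay between the Control libraries. The log2 difference was -0.35 (SE 0.18), between -0.51 without OX-LDL replicate 2 and -0.23 without Control replicate 1. No other gene overlaps *RARG*.

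*RARB* (ENSG00000077092, chromosome 3, 25174332 to 25597932, plus strand), the receptor whose promoter holds the DR5 printed above, was at or under the detection limit in 5 of the 6 libraries. It had 7, 37 and 5 counts in Control, compared with 4, 8 and 4 counts in OX-LDL, so that only Control replicate 2 exceeded 12 counts. No difference was detectable at this depth, and the log2 value of -1.53 (SE 0.99) from the fit with no minimum level rests on that library. The 3′ end of *RARB* overlaps *TOP2B* on the other strand, which had 15428 to 23288 counts.

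The sum of the 3 receptor genes was 6.35, 6.09 and 5.53 FPKM in Control, compared with 4.52, 5.46 and 4.64 FPKM in OX-LDL. The groups did not overlap, although Control replicate 3 was only just above OX-LDL replicate 2. *RARA* held 49.9 to 59.2% of the sum, *RARG* 40.6 to 49.8% and *RARB* at most 1.82%.

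Per length, the order of levels changed mainly through *DHRS3* and *CRABP2*. In Control, *DHRS3* was highest, followed by *RDH10*, *ALDH1A3*, *ALDH1A1*, *RARA*, *RARG*, *CRABP2*, *ALDH1A2* and *RARB*. The ranges over the 3 libraries overlapped between *ALDH1A3* and *ALDH1A1*, between *ALDH1A1* and *RARA*, and between *ALDH1A2* and *RARB*, so these neighbours did not differ beyond their spread. *RARA* and *RARG* were barely apart, with the lowest *RARA* library at 3.168 FPKM and the highest *RARG* library at 3.159 FPKM. The Control range of *RARG* also lay within that of *ALDH1A1* (2.18 to 7.50 FPKM). In OX-LDL, *RDH10* and *ALDH1A3* led with overlapping ranges, and *ALDH1A1*, *DHRS3*, *CRABP2* and *RARA* followed with each range overlapping the next. *RARG* lay under *RARA* with its range apart from it, though it overlapped that of *ALDH1A1*, and *ALDH1A2* and *RARB* came last with overlapping ranges. *CRABP2* was thus under *RARA* and *RARG* in every Control library, and its lowest OX-LDL library, at 2.76 FPKM, lay above the highest *RARG* library of that group, at 2.55 FPKM.

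The other genes of the pathway were tested over all 19510 genes, with p-values adjusted by the Benjamini-Hochberg method. The lists were chosen with earlier results of these data known. The shares called here and in each list below are therefore a description, and no excess over all genes is read from them. Of 78 genes in 7 lists, 53 were fitted, and 5 rose and 6 fell, or 20.8% beside the 15.3% of all genes. At an unadjusted p under 0.05 with edgeR there were 22 of the 53, beside 30.4% of all genes. DESeq2 called 19 of the same 53, beside 26.4% of the 16805 genes that had one, and limma on log2(FPKM + 0.1) called 9 of the 53, beside 14.9% of all genes. The median log2 difference of the 53 genes was 0.04. Of the 78 genes, 22 were at or under the detection limit in all 6 libraries, 13 of them with no count at all.

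Among 13 genes of retinol uptake, transport and storage, 5 were fitted and only *STRA6* passed, or 1 of 5 beside 15.3% of all genes. *STRA6*, the receptor that takes up retinol from its plasma carrier, had 0.865, 0.904 and 0.923 FPKM in Control, compared with 0.436, 0.425 and 0.352 FPKM in OX-LDL. The groups were well apart. *STRA6* fell by 1.11 on the log2 scale (SE 0.15, adjusted p = 0.00717 with edgeR) and passed in each of the 6 fits that left out 1 library.

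Of 24 other retinol and retinal oxidoreductases and carotenoid cleavage enzymes, 15 were fitted, 2 rose and 2 fell. This is 26.7%, beside 15.3% of all genes, and the list itself was given no test. *AOX1*, an aldehyde oxidase able to oxidize retinal, rose from 0.470, 0.417 and 0.253 FPKM in Control to 1.35, 0.653 and 1.04 FPKM in OX-LDL (log2 difference 1.44, SE 0.34, edgeR adjusted p = 0.0353). *BCO2*, which cleaves carotenoids, rose from a mean of 1.18 ± 0.101 to 1.67 ± 0.117 FPKM (SD, n = 3 each, edgeR adjusted p = 0.0371). The short-chain dehydrogenases *RDH13* and *RDH14* fell by 0.57 and 0.39 on the log2 scale (edgeR adjusted p = 0.0407 and 0.0339). None of these 4 calls was stable. *BCO2* and *RDH14* lost it whichever library was left out (adjusted p 0.0575 to 0.118 and 0.0543 to 0.119), and *AOX1* and *RDH13* kept it only without OX-LDL replicate 2 (0.0216 and 0.0423, and 0.0604 to 0.106 and 0.0689 to 0.116 without any other library).

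For the clearance of retinoic acid, *CYP26A1* and *CYP26C1* were fitted, and neither passed. Neither was called by edgeR, DESeq2 or limma, and neither had an unadjusted p under 0.05 with edgeR. *CYP26A1*, the enzyme whose gene carries the other DR5 printed above, had 86, 113 and 96 counts in Control, compared with 79, 160 and 38 counts in OX-LDL. The OX-LDL libraries lay on both sides of Control, and the log2 difference was -0.04 (SE 0.50, edgeR adjusted p = 0.968). *CYP26B1* had 16 to 56 counts in Control, compared with 26 to 38 counts in OX-LDL and was under the minimum level.

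*FABP5*, a fatty acid carrier that can deliver retinoic acid to another nuclear receptor, was at 5.18, 4.24 and 7.31 FPKM in Control, compared with 11.6, 7.59 and 9.96 FPKM in OX-LDL. The groups did not overlap, but the log2 difference of 0.83 (SE 0.24) missed the threshold with edgeR (adjusted p = 0.0643), while DESeq2 gave an adjusted p of 0.00550. Over all alternatives the adjusted p ran from 0.00550 to 0.176. The ratio of *CRABP2* to *FABP5* in FPKM was 0.205 ± 0.0641 in Control and 0.340 ± 0.0290 in OX-LDL (SD, n = 3 each), with no overlap between the groups. The other carrier, *CRABP1*, had no count in any library.

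Of the retinoid X receptors, the partners of the RAR proteins, *RXRA* and *RXRB* were fitted. Neither was called with edgeR, DESeq2 or limma, and neither had an unadjusted p under 0.05 with edgeR. The log2 difference was 0.18 (SE 0.12, edgeR adjusted p = 0.370) for *RXRA* and 0.03 (SE 0.15, edgeR adjusted p = 0.920) for *RXRB*, and *RXRG* had no count. *RXRB* was at 8.22 to 11.7 FPKM over the 6 libraries, above the RAR sum of the same library in each.

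All 12 receptor cofactors were fitted, and 1 rose and 3 fell, or 33.3% beside 15.3% of all genes, with no test of the list. *CREBBP*, an acetyltransferase that serves as a coactivator, was at 8.41, 9.12 and 8.39 FPKM in Control, compared with 5.42, 5.25 and 5.24 FPKM in OX-LDL. It fell by 0.67 on the log2 scale (SE 0.06, edgeR adjusted p = 0.00224) and passed in each of the 6 fits without 1 library. The related coactivator *EP300* fell by 0.31 (SE 0.07, edgeR adjusted p = 0.0275) and the corepressor *NCOR1* by 0.44 (SE 0.09, edgeR adjusted p = 0.0242). *HDAC3*, the deacetylase of corepressor complexes, rose by 0.38 (SE 0.07, edgeR adjusted p = 0.0185). The list thus held coactivators and a corepressor that fell and a corepressor subunit that rose. The last 3 calls depended on the libraries kept. *EP300* and *HDAC3* passed only without Control replicate 3 (0.0459 and 0.0486) or OX-LDL replicate 2 (0.0495 and 0.0277), and *NCOR1* only without Control replicate 2 (0.0391) or OX-LDL replicate 2 (0.0225), and without any of the others their adjusted p ran from 0.0531 to 0.0868.

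Of 27 genes known to respond to retinoic acid, 20 were fitted, 2 rose and 1 fell, the last being *STRA6* again. This is 15.0%, beside 15.3% of all genes. *TGM2*, the tissue transglutaminase that crosslinks matrix proteins, was at 6.28, 5.27 and 6.89 FPKM in Control, compared with 16.6, 12.1 and 15.3 FPKM in OX-LDL. All OX-LDL libraries were above all Control libraries, with a log2 difference of 1.29 (SE 0.15, edgeR adjusted p = 0.00433) that passed in each of the 6 fits without 1 library. *BHLHE40*, a transcriptional repressor of the circadian and hypoxia responses, rose by 0.48 (SE 0.10, edgeR adjusted p = 0.0218), but passed only without Control replicate 3 (0.0156) or OX-LDL replicate 2 (0.0404), with 0.0642 to 0.0783 without any of the others.

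**Figure D3:**
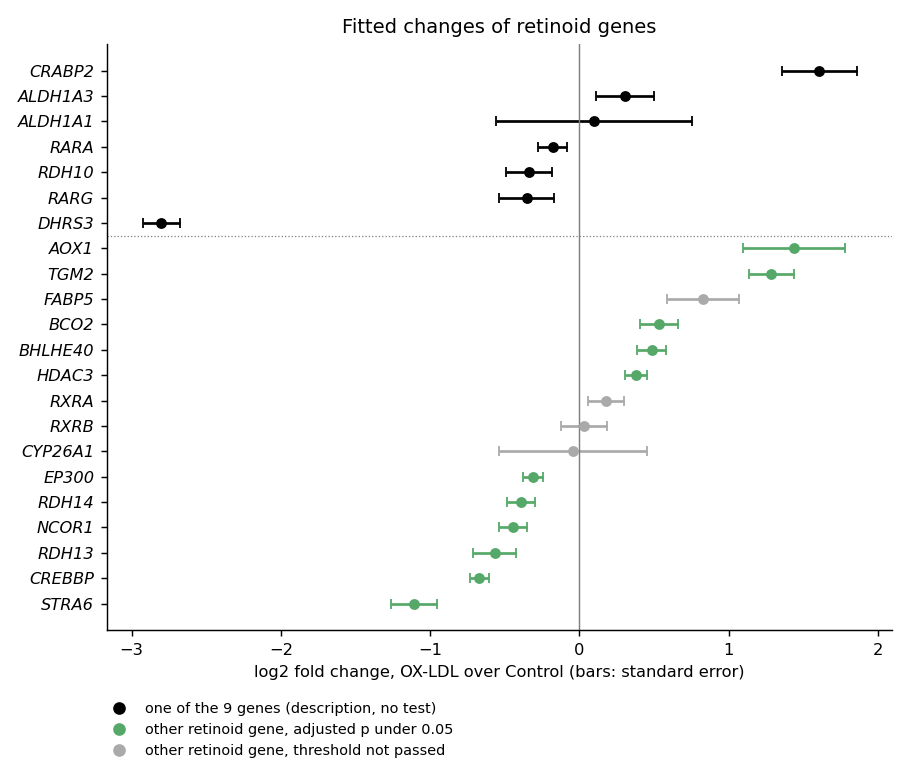
Fitted log2 fold change of OX-LDL over Control (x axis, bars are standard errors) for the 7 fitted retinoid genes of the 9 (black, a description with no test) and for named genes of the other pathway lists, coloured by whether the adjusted p was under 0.05 (green) or not (grey). *DHRS3* at -2.80 and *CRABP2* at 1.61 are the lowest and the highest values shown, and *STRA6* at -1.11, *AOX1* at 1.44 and *TGM2* at 1.29 follow.

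The profiles of *DHRS3* and *CRABP2* over the 6 libraries were compared with those of the 12252 genes whose mean level reached 1 FPKM, as the root mean square difference of log2(FPKM + 0.1) after centring each gene on its mean. The genes nearest to *DHRS3* were *CTH* (0.168), an enzyme that makes cysteine, *GDF15* (0.171), a secreted stress cytokine, *ARG2* (0.206), the mitochondrial arginase, *AC254633* (ENSG00000272482, 0.261) and *CHAC1* (0.275), an enzyme that breaks down glutathione. *GDF15* was at 48.7, 55.1 and 48.9 FPKM in Control, compared with 5.81, 6.97 and 6.30 FPKM in OX-LDL, and so repeated the low OX-LDL levels of *DHRS3* at a higher scale. The genes nearest to *CRABP2* were *SMTN* (0.0651), a protein of contractile actin filaments, *RBMS3-AS3* (0.139), *C1QL1* (0.170), *GPC1* (0.170), a heparan sulfate proteoglycan, and *CAVIN3* (0.180), a coat protein of caveolae. *SMTN* was at 0.970, 1.22 and 1.39 FPKM in Control, compared with 4.81, 2.99 and 3.52 FPKM in OX-LDL, with the same library highest in OX-LDL and the same library lowest in Control as for *CRABP2*. These neighbours were picked by their nearness over the same 6 libraries. The likeness of their values therefore follows from the choice and is a description only.

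*ALDH1A1* was added to this comparison after its values had been seen. Its nearest genes were *AKR1C2* (0.225), *PRUNE1* (0.245), *KRT81* (0.293), *KCTD20* (0.322) and *MANEAL* (0.403). *AKR1C2*, an aldo-keto reductase of steroid metabolism, was at 2.11, 0.515 and 0.369 FPKM in Control, compared with 0.889, 0.508 and 1.88 FPKM in OX-LDL. Like *ALDH1A1*, it was high in Control replicate 1 and OX-LDL replicate 3, a likeness that follows from its choice by nearness. *AKR1B10*, a retinal reductase of the oxidoreductase list that was singled out after its values had been seen, was at 9.14, 2.60 and 1.34 FPKM in Control, compared with 5.33, 3.35 and 8.50 FPKM in OX-LDL, with the same libraries highest in each group. *AKR1B1* and *AKR1C3* of the same list were also highest in Control replicate 1 (412 and 6.93 FPKM). In OX-LDL, however, *AKR1B1* was highest in replicate 1 (207 FPKM) and *AKR1C3* in replicate 2 (6.44 FPKM). What sets Control replicate 1 and OX-LDL replicate 3 apart was not tested.

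**Figure D4:**
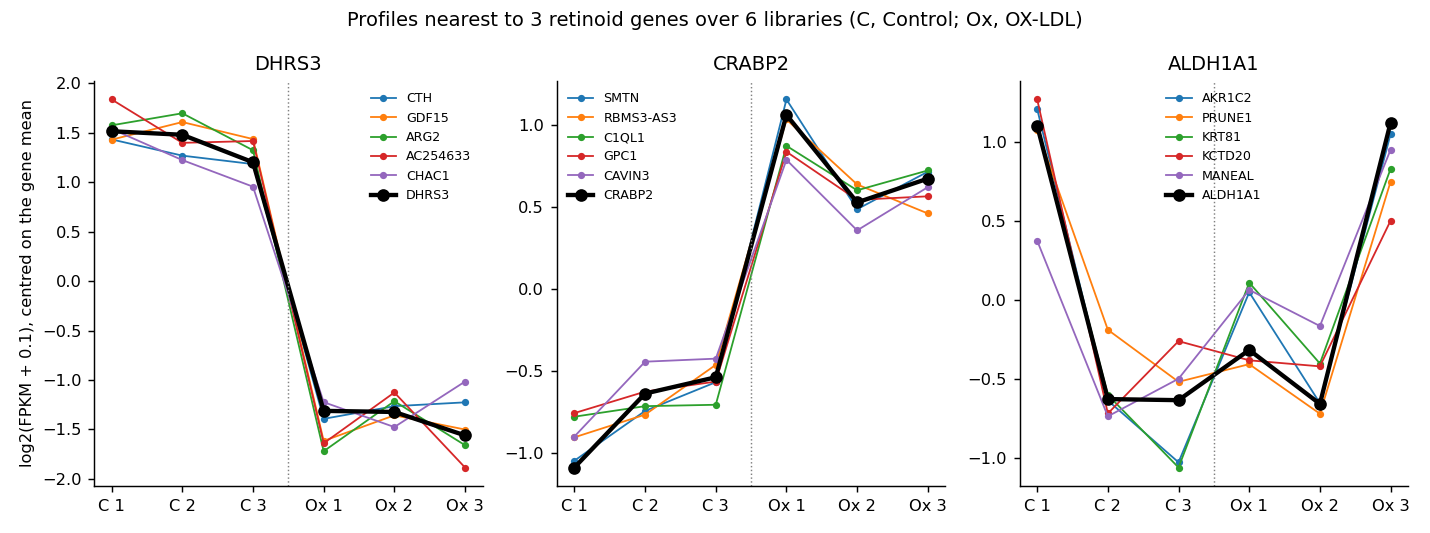
Level of *DHRS3*, *CRABP2* and *ALDH1A1* (black) and of the 5 genes with the nearest profile (colours) in each Control (C) and OX-LDL (Ox) library, as log2(FPKM + 0.1) minus the mean of the gene over the 6 libraries. The lines of *DHRS3* and *CRABP2* step between the groups, at the dotted line, while *ALDH1A1* and its neighbours peak in Control replicate 1 and OX-LDL replicate 3.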

How the data were processed

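Libraries were grouped by the labels of the series. The authors deposited 1 table with estimated counts, which are whole numbers and not scaled for library size, and FPKM values, which the authors scaled for transcript length and library size. The submitters' processing notes name cutadapt 1.9, HISAT2 2.0.4, StringTie 1.3.4d, edgeR, DESeq2 and GRCh38, without a role or order. The library kit marks strand, but the strand setting of the counting is not given in the sources used here. Within a group, no pair of libraries agreed within sampling noise. The precision is therefore limited by the spread between libraries as well as by the depth of 62561347 to 76797607 counts. Values under 12 counts are not read as differences.

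Counts were fitted with edgeR 4.0.16 in R 4.3.3 (TMM factors, glmQLFit and glmQLFTest, group as the only term, all 6 libraries) for the 19510 genes whose mean level reached 0.1 FPKM, and adjusted by the Benjamini-Hochberg method. Each standard error was taken as the size of the log2 difference over the root of its F statistic. The alternatives were DESeq2 1.42.0, limma 3.58.1 on log2(FPKM + 0.1), with pseudocounts of 1 and 0.01, other scaling factors, counts divided by 4, no minimum or 1 FPKM, a replicate block and leaving out each library. The code was tested on simulated data. Positions are those of the table, and 4 of the 9 genes have identical coordinates in GENCODE release 29. Promoter windows are from RefSeq.

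The 9 genes, the pathway lists and the marker lists were chosen with earlier results of these data known, and values of the 9 genes between the groups are therefore a description with no test. For the same reason, the share of genes called in a pathway list is a description only. The genes named are these 9, up to 4 called genes of each pathway list with the smallest p, *CYP26A1*, *CYP26B1*, *FABP5*, *CRABP1*, *STRA6* and the RXR genes, genes that overlap the 9 in position, and the 5 nearest profiles of the genes with the highest and lowest log2 difference. *CYP26C1*, *AKR1B10* and the profiles near *ALDH1A1* were added once their values were known. A further gene of the rule is not reported here. The annotation terms in the table were not used.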

Additional observations from a re-analysis of the deposited data

How the results depend on the processing

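The 7 fitted retinoid genes kept the sign of their log2 difference under every alternative, except *ALDH1A1* when a library was left out (-0.67 to 0.97). With limma on log2(FPKM + 1), which shrinks low levels by construction, *DHRS3* moved to -2.51 and *CRABP2* to 1.03, and under the other alternatives with all 6 libraries both stayed within the spread between replicates. When each library was left out in turn, the difference ranged from -2.90 to -2.73 for *DHRS3*, -0.47 to -0.20 for *RDH10*, 0.14 to 0.43 for *ALDH1A3*, -0.22 to -0.14 for *RARA*, -0.51 to -0.23 for *RARG* and 1.44 to 1.72 for *CRABP2*. The log2 ratio of group means ranged from 0.01 to 0.47 for the ALDH1A sum, -0.39 to -0.25 for the RAR sum and -2.56 to -2.38 for *DHRS3* over *RDH10*. *ALDH1A2* and *RARB* could be fitted only with no minimum level.

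Over all genes, 2991 were called, and 1161 (without Control replicate 2) to 2943 (without OX-LDL replicate 2) when a library was left out, with fewer samples in each fit by construction. With all libraries, 11 other pathway genes were called (5 higher, 6 lower), and without 1 library the number of pathway genes called was 3 to 11 (1 to 5 higher, 2 to 6 lower), of which 3 to 9 were among the first 11. DESeq2 called 19 of the pathway genes, 10 of them higher, and 4430 genes in all. The higher calls were 3 with limma on log2(FPKM + 0.1), 3 on log2(FPKM + 1) and 3 on log2(FPKM + 0.01). Samples with the same replicate number did not deviate together (correlations of -0.041, -0.003 and 0.036). This check cannot tell whether such samples were handled together, and the labels do not say. With a replicate block, 1636 genes were called in all and 4 pathway genes, 2 higher and 2 lower. *RARB* was above 12 counts in 1 library only, which limits what its values show.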
